A study of Rattus norvegicus with 8 samples.

Results

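The metallothioneins Mt1 (older symbol Mt1a), Mt2A and Mt3 were followed in hypothalamic RNA from female Sprague-Dawley rats at 21 days of age. These 3 genes, of 14506 genes with a uniquely named probe set, were chosen by name from the array annotation, with results of the maternal diet comparison on these arrays already known. The annotation lists 5 probe sets for them, 2 for Mt1 (10796411 and 10809392), 2 for Mt2A (10809399 and 10827989) and 1 for Mt3 (10809402), and none of the 5 is shared with another gene. The 2 probe sets of Mt1 are annotated to the same transcript, as are the 2 of Mt2A, so they are repeated readings of 1 gene and not independent members. Near-identical copies such as pseudogenes could add signal to any of them, which was not tested.

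Affymetrix Rat Gene 1.0 arrays were used, 8 in all, 2 (replicates A and B) for each of 4 groups. Con-s and Con-l were born to mothers that ate normally during gestation and lactation, and received saline (Con-s) or leptin (Con-l) on postnatal days 2 to 8. CR-s and CR-l were offspring of mothers whose calories were cut by 50% over gestation days 11 to 21, with restriction also after birth, and received saline (CR-s) or leptin (CR-l) over the same days. The series' design note calls the leptin-treated controls Con-r, while the sample titles used here call them Con-l. The wording of the sample labels leaves unclear whether pups or mothers were injected. The labels do not say whether an RNA sample holds 1 animal or several, so every test below measures only the spread between these samples. In bulk tissue, fewer cells of a type and less RNA per cell cannot be told apart.

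Metallothioneins are small cysteine-rich proteins that bind zinc and copper. Mt1 and Mt2A are widely expressed, in the brain mainly by astrocytes and cells of the vessels and linings, and their transcription is known to be induced by metals through the factor MTF1, by glucocorticoid hormones and by oxidative stress. Mt3, also called growth inhibitory factor, is made largely in the nervous system, in neurons and astrocytes, and does not respond to metals in the way Mt1 and Mt2A do.

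In RefSeq's GRCr8 assembly Mt1, Mt2A, Mt3 and a related gene, Mt4, follow each other on chromosome 19 with no other gene between them. Their promoters are shown because Mt1 and Mt2A were higher in the restricted offspring while Mt3 was not. The 300 bases run from 250 before to 50 after the gene start, 5′ to 3′ on the gene's strand (minus for the 3 genes), at chr19:10832926-10833225 for Mt1, chr19:10838659-10838958 for Mt2A and chr19:10856031-10856330 for Mt3. Capitals mark matches on either strand to the metal response element core, written here as TGCACNC or TGCGCNC.
Mt1: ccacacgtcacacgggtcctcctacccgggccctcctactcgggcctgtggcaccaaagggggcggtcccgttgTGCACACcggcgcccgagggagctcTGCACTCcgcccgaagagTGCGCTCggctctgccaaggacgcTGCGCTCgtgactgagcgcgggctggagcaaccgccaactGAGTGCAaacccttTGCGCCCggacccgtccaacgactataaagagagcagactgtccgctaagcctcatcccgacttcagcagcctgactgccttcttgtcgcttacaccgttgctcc
Mt2A: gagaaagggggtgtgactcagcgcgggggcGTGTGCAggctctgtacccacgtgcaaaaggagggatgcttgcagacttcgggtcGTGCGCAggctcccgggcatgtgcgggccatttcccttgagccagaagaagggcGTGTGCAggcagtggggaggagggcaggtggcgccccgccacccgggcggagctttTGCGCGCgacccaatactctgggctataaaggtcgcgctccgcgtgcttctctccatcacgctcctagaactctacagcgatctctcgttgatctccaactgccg
Mt3: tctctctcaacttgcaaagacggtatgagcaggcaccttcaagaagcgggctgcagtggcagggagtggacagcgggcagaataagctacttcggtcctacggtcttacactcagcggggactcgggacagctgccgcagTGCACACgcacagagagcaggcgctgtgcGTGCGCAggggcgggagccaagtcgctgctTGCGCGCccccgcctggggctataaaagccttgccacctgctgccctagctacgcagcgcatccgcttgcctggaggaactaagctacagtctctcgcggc

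The Mt1 window held 6 such cores, the Mt2A window 4 and the Mt3 window 3. At least 1 core was present in 24.2% of 33469 promoters of the same length in the RefSeq table. A count as high as that of Mt1 was found in 13 of those promoters (0.039%), as high as that of Mt2A in 147 (0.439%), and as high as that of Mt3 in 562 (1.68%). An antioxidant response element core, TGACNNNGC on either strand and overlapping no metal response core here, occurred in the Mt1 and Mt2A windows, 1 match in each, and in 12.1% of all promoters. The Mt3 window holds no such letters. The 3 windows had a G and C content of 62.7% to 65.0%, against a median of 51.7% over all promoters. These matches describe letters in a window and are not measured binding sites.

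Mt2A was higher in restricted offspring than in controls. On probe set 10809399 the log2 intensity was 11.03 and 10.83 in Con-s (replicates A and B), 10.74 and 10.86 in Con-l, 11.62 and 11.27 in CR-s, and 11.61 and 12.09 in CR-l. Each CR array lay above each Con array, and CR-l replicate B was the highest of the 8. On probe set 10827989 the values were 9.90 and 9.57 in Con-s, 9.59 and 9.72 in Con-l, 10.58 and 10.17 in CR-s, and 10.45 and 11.05 in CR-l, with the same separation by diet. Averaged over saline and leptin, the CR arrays exceeded the Con arrays by 0.78 on the log2 scale (SE 0.13, n = 4 against 4), 1.72-fold, on the first probe set and by 0.87 (SE 0.15), 1.82-fold, on the other.

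Mt1 was higher in restricted offspring as well, by a smaller averaged amount, though the gap between the 2 genes was not tested. Probe set 10796411 read 9.05 and 9.04 in Con-s, 8.88 and 8.72 in Con-l, 9.60 and 9.36 in CR-s, and 9.33 and 9.56 in CR-l. Probe set 10809392 read 8.64 and 8.60 in Con-s, 8.46 and 8.29 in Con-l, 9.23 and 8.99 in CR-s, and 8.97 and 9.22 in CR-l. The diets did not overlap on either probe set, and the controls given leptin were the lowest 2 arrays on both. The averaged diet difference was 0.54 (SE 0.08), 1.45-fold, on 10796411 and 0.60 (SE 0.08), 1.52-fold, on 10809392.

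Mt3 differed in the other direction, and by little. It read 9.74 and 9.85 in Con-s, 9.87 and 9.95 in Con-l, 9.65 and 9.71 in CR-s, and 9.69 and 9.72 in CR-l. The highest CR array lay 0.02 below the lowest Con array, so the diets were separated by a gap smaller than the difference between the replicates of any group. The averaged difference was -0.16 (SE 0.05), a 1.12-fold lower level in restricted offspring.

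The diet differences above are descriptions without a test, since the genes were chosen with this contrast known. All 4 probe sets of Mt1 and Mt2A had every CR array above every Con array, as did 4.53% of the 14508 features, and the Mt3 probe set had every CR array below every Con array, as did 6.67%. In the limma fit over all features 1.24% passed an adjusted p of 0.05 in the averaged diet comparison, 0.338% higher and 0.903% lower, and 15.8% had an unadjusted p under 0.05. That count, 180 features, fell when any 1 array was left out. It also changed with the settings when all 8 arrays were kept. It was 742 with trend and robust variance moderation, 611 among the upper 60 percent of features by mean, and 178 with cyclic loess. With the replicate letter as a block it was 87, and with all probe sets it was 0. The calls in this comparison therefore rest on the full set of 8 and on the settings. Ranked from the largest positive difference, the Mt2A probe sets were number 2 (10827989) and 4 (10809399), the Mt1 probe sets 19 (10809392) and 27 (10796411), and Mt3 13479 of 14508. Mt4, a metallothionein of stratified epithelia not among the genes chosen, is a low-signal neighbour named after its values were seen. Its mean level exceeded that of only 18.9% of features, so it cannot serve as a control for the other genes. It lay between 5.44 and 5.62 on all 8 arrays, with an averaged diet difference of 0.00 (SE 0.06, limma adjusted p = 0.992).

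**Figure D1:**
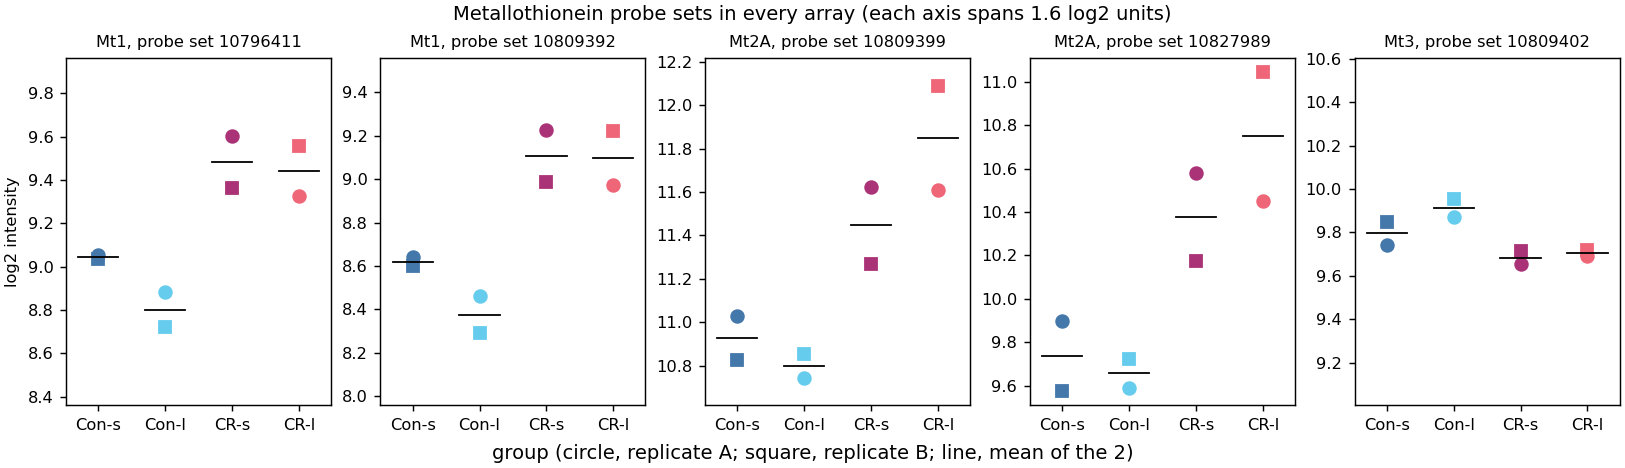
Log2 intensity (vertical axis) of each metallothionein probe set in the 4 groups (horizontal axis), with a point for each array (circle for replicate A, square for replicate B) and a line at the mean of the 2 arrays; each panel spans the same 1.6 log2 units. All CR points of Mt1 and Mt2A lie above all Con points, with CR-l replicate B of Mt2A the highest, and the Mt3 points span 9.65 to 9.95.

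Under saline alone (CR-s minus Con-s, 2 arrays against 2) the difference was 0.52 (SE 0.18) and 0.64 (SE 0.22) on the Mt2A probe sets 10809399 and 10827989, 0.44 (SE 0.11) and 0.49 (SE 0.12) on the Mt1 probe sets 10796411 and 10809392, and -0.11 (SE 0.07) for Mt3. Under leptin (CR-l minus Con-l) it was 1.05 (SE 0.18) and 1.09 (SE 0.22) for Mt2A, 0.64 (SE 0.11) and 0.72 (SE 0.12) for Mt1, and -0.21 (SE 0.07) for Mt3. Each of the 5 probe sets therefore had a larger diet difference under leptin than under saline, and the test of that change is the interaction given below. Both CR arrays lay above both Con arrays on the 4 Mt1 and Mt2A probe sets in each of these comparisons, as in 16.9% of features under saline and 23.5% under leptin, and below them for Mt3, as in 21.1% and 22.9%. No feature passed under saline (0% called, 8.51% at an unadjusted p under 0.05), and 0.0207% did under leptin (0.00689% higher, 0.0138% lower, and 14.2% at an unadjusted p under 0.05). Single arrays moved these values. Under saline Mt2A on 10809399 ranged from 0.34 (without CR-s replicate A) to 0.70 (without CR-s replicate B), on 10827989 from 0.44 to 0.84 without the same arrays, and Mt3 from -0.16 (without Con-s replicate A) to -0.06 (without Con-s replicate B). Under leptin Mt2A was 0.81 and 0.80 on the 2 probe sets without CR-l replicate B, and 1.29 and 1.39 without CR-l replicate A.

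The groups ran in the same order on both probe sets of a gene. For Mt2A the order was Con-l, Con-s, CR-s, CR-l, and the arrays of neighbouring groups overlapped except at the step from Con-s to CR-s. For Mt1 it was Con-l, Con-s, CR-l, CR-s, where only CR-l and CR-s overlapped. For Mt3 it was CR-s, CR-l, Con-s, Con-l, and again only the 2 CR groups overlapped.

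Whether early leptin moved these genes was tested. The leptin difference averaged over diets is statistically separate from each diet difference. The leptin differences within a diet and the interaction overlap with the diet differences under saline and under leptin. Those were part of the pattern known when the members were chosen, so the tests within a diet and of the interaction are not shown to be free of that choice. Averaged over both diets (4 leptin arrays against 4 saline arrays), leptin differed from saline by 0.14 for Mt2A on 10809399 (95% confidence interval -0.16 to 0.43, limma adjusted p = 0.922) and by 0.15 on 10827989 (-0.22 to 0.51, limma adjusted p = 0.925). For Mt1 the difference was -0.14 on 10796411 (-0.33 to 0.04, limma adjusted p = 0.913) and -0.13 on 10809392 (-0.32 to 0.06, limma adjusted p = 0.913). For Mt3 it was 0.07 (-0.04 to 0.18, limma adjusted p = 0.913). Without CR-l replicate B the 2 Mt2A values were 0.02 and -0.00, and without CR-l replicate A they were 0.26 and 0.30. Every leptin array lay above every saline array in 1.27% of features, and below in 1.1%. The leptin and saline arrays overlapped on all 5 metallothionein probe sets. The split by diet fixes that overlap in advance, so it carries no information on leptin. None of the 5 passed, and neither did any of the 14508 features (0% called); 707 features, 4.87%, had an unadjusted p under 0.05, and no metallothionein probe set was among them.

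In restricted offspring, the groups in which the study's title places a reversal of other genes by leptin, Mt2A was 0.40 higher in CR-l than in CR-s on 10809399 (interval -0.01 to 0.82, limma adjusted p = 0.808) and 0.37 higher on 10827989 (-0.14 to 0.89, limma adjusted p = 0.819). Neither value passed, and the 2 groups overlapped on both probe sets. Leaving out CR-l replicate B lowered the 2 values to 0.16 and 0.08, and leaving out CR-l replicate A raised them to 0.64 and 0.67. Mt1 differed by -0.04 (-0.30 to 0.22, limma adjusted p = 0.957) and -0.01 (-0.28 to 0.26, limma adjusted p = 0.993), and Mt3 by 0.02 (-0.13 to 0.17, limma adjusted p = 0.963). On none of the 5 probe sets were the CR-l arrays within the range of the Con-s arrays. That follows from the separation of the diets given above, so it is no separate result on leptin. No feature passed in this comparison (0% called, 848 at an unadjusted p under 0.05, 5.85%).

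In control offspring the Con-l arrays lay below the Con-s arrays on both Mt1 probe sets, by 0.24 each (log2 difference -0.24, interval -0.50 to 0.02 on 10796411 and -0.51 to 0.03 on 10809392, limma adjusted p = 0.997 for each). Both Con-l arrays fell below both Con-s arrays in 16.5% of all features. Mt2A differed by -0.13 (-0.54 to 0.29) and -0.08 (-0.59 to 0.43), with overlapping groups, and Mt3 by 0.12 (-0.04 to 0.27), with both Con-l arrays above both Con-s arrays, as in 16.2% of features. The limma adjusted p was 0.997 for these 3 values too, and no feature passed (0% called, 608 at an unadjusted p under 0.05, 4.19%).

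The interaction, the leptin difference in restricted offspring minus that in controls, was 0.53 (-0.06 to 1.12, limma adjusted p = 0.898) and 0.45 (-0.27 to 1.18, limma adjusted p = 0.907) for Mt2A. For Mt1 it was 0.20 (-0.17 to 0.57, limma adjusted p = 0.910) and 0.23 (-0.15 to 0.61, limma adjusted p = 0.907), and for Mt3 -0.10 (-0.31 to 0.12, limma adjusted p = 0.941). Leaving out CR-l replicate B lowered the 2 Mt2A values to 0.29 and 0.15, and leaving out CR-l replicate A raised them to 0.77 and 0.75. No probe set passed (0% of features called, 747 at an unadjusted p under 0.05, 5.15%). With the Mt2A intervals this wide, a like effect of leptin in both diets is not shown either.

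**Figure D2:**
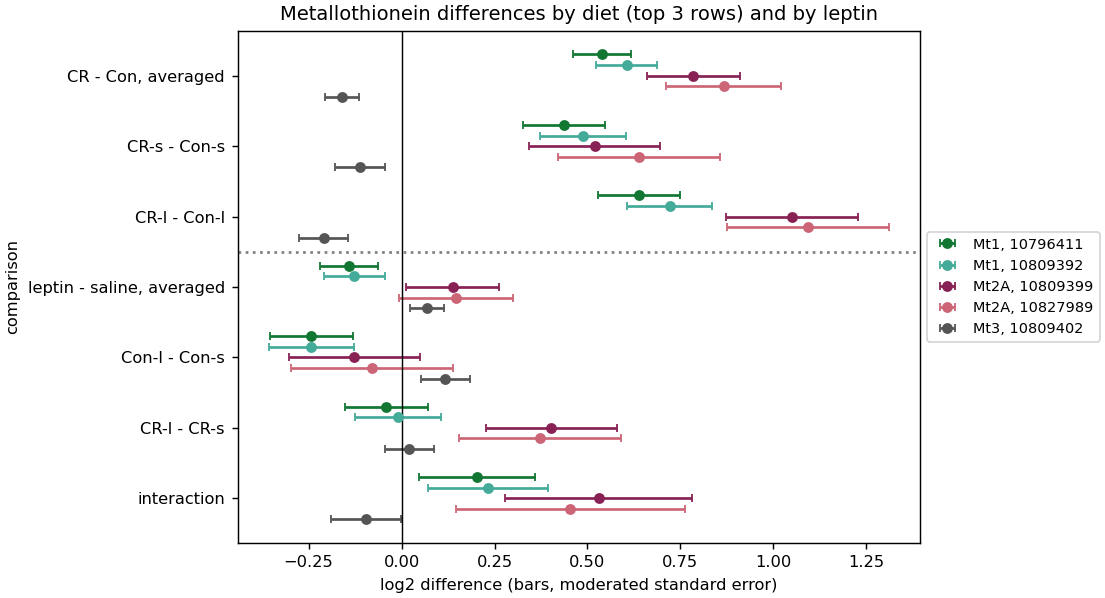
Log2 differences (horizontal axis) of the 5 metallothionein probe sets in 7 comparisons (vertical axis), with points at the estimate and bars for the moderated standard error; the dotted line separates the diet comparisons, which are not tested, from the leptin comparisons and the interaction. Mt1 and Mt2A lie between 0.44 and 1.09 in the diet rows and between -0.24 and 0.53 below the line, and Mt3 lies at -0.21 to 0.12 throughout.

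The difference between the 2 arrays of a group uses no diet contrast, and it was used to see how far the members vary together. In CR-s, replicate A exceeded replicate B by 0.24 on both Mt1 probe sets and by 0.35 (10809399) and 0.40 (10827989) on those of Mt2A. In CR-l, replicate A was lower than B, with differences of -0.23 and -0.25 for Mt1 and -0.48 and -0.60 for Mt2A. These all exceed the median absolute replicate difference of all features, 0.09 in CR-s and 0.08 in CR-l. Many features exceed a median by its nature, so this does not set the members apart. Mt1 and Mt2A thus differed in the same direction between the restricted replicates.

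In Con-l the 2 genes had opposite signs. There, Mt1 was higher in replicate A by 0.16 and 0.17, while Mt2A was lower in A, at -0.11 and -0.14. In Con-s both were higher in replicate A, Mt2A by 0.20 and 0.33 and Mt1 by 0.02 and 0.04. The 2 probe sets of a gene gave the same sign in all 4 groups. Mt3 differed by -0.03 to -0.10 in the 4 groups, always lower in replicate A.

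**Figure D3:**
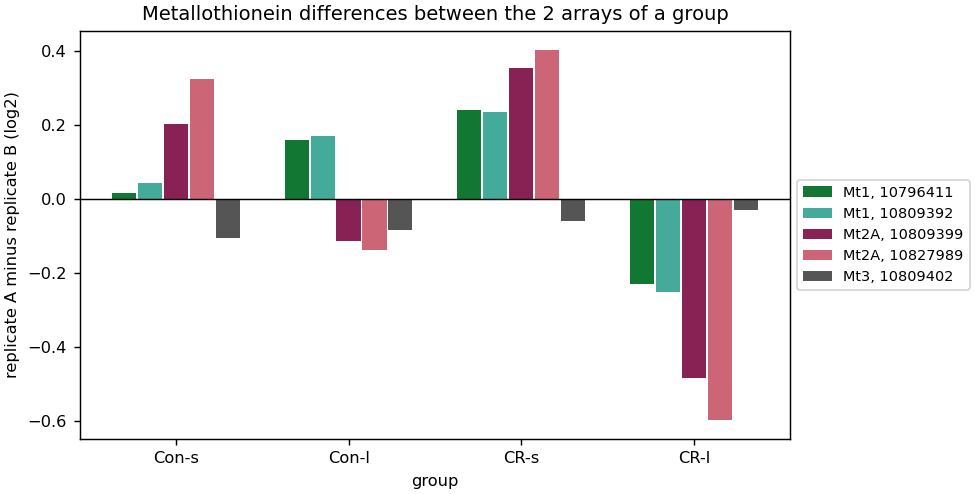
Replicate A minus replicate B on the log2 scale (vertical axis) for each metallothionein probe set in the 4 groups (horizontal axis), drawn as bars from 0. The bars of Mt1 and Mt2A share a sign in Con-s, CR-s and CR-l and have opposite signs in Con-l, and the 2 bars of a gene always share a sign.

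Over the 8 arrays the 2 probe sets of Mt1 correlated at 0.998 (Pearson's r) and those of Mt2A at 0.996. Between Mt1 and Mt2A r was 0.885 to 0.907, and between Mt3 and the others it was -0.757 to -0.915. These values describe 8 arrays that share the split by diet, and they carry no test. By the same measure, the genes most like Mt1 were Cdh8, a neuronal cadherin (r = 0.984 and 0.989 on the 2 probe sets), the transcription factor Zbtb16 (0.970 and 0.971), a known glucocorticoid target, and Ifngr1, the interferon gamma receptor chain (0.961 and 0.970). They were followed by Zfp382 (0.956) and Slc37a4 (0.952) on one probe set, and by C8g (0.965) and Glo1 (0.960), a glyoxalase, on the other.

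The genes most like Mt2A were different. Galc, a lysosomal galactosylceramidase, had r = 0.982 and 0.985 on the 2 probe sets, and Ppargc1a, a coactivator of mitochondrial genes, 0.984 and 0.978. Ufd1, of the protein degradation machinery, had 0.979 and 0.974. The remaining places were held by Tomm22 (0.978) and Xpo6 (0.975) on 10809399, and by the circadian clock genes Cry1 (0.976) and Per2 (0.973) on 10827989. Most like Mt3 were Rffl (0.980), the oligodendrocyte lineage factor Olig1 (0.978), Ptp4a2 (0.974), Mcam (0.965) and Dgka (0.964). In all, 87 and 125 genes exceeded r = 0.9 with the Mt1 probe sets, 168 and 143 with those of Mt2A and 82 with Mt3.

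These genes were picked by likeness over arrays that split by diet, which largely fixes their diet differences, so those are given as a description with no test. They were 0.72 for Zbtb16, 0.23 for Ifngr1 and 0.14 for Cdh8, and 0.48 for C8g, a complement component. For the genes most like Mt2A they were 0.19 to 0.26, below the 0.78 and 0.87 of Mt2A itself. Among the genes most like Mt3, Mcam, a cell adhesion molecule of vessels, measured -0.25 and Olig1 -0.20.

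None of the genes listed as known to control metallothionein transcription passed in the averaged diet comparison. Of 10 measured, 2 lay above 0 and 8 below (median -0.05, against 0.00 over all 14508 features). Mtf1, the metal-sensing factor, differed by -0.06 (SE 0.04, limma adjusted p = 0.548), and the glucocorticoid receptor gene Nr3c1 by 0.03 (SE 0.06, limma adjusted p = 0.859). The mineralocorticoid receptor gene Nr3c2 measured -0.13 (SE 0.07), Nfe2l2, the oxidative stress factor NRF2, -0.06 (SE 0.06), and its inhibitor Keap1 -0.03 (SE 0.05). Stat3 measured -0.11 (SE 0.05) and Il6st, the shared receptor chain of the interleukin-6 family, -0.16 (SE 0.04, limma adjusted p = 0.132), the smallest p of the list. Usf1, Usf2 and Sp1 lay at 0.06, -0.04 and -0.02. The summed intensity of the list was 4730 to 4956 in the Con arrays and 4451 to 4675 in the CR arrays, which do not overlap. The arrays measure RNA, and the activity of the proteins was not measured.

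No listed gene of metal transport passed either. Of the 10 zinc exporters of the Slc30 family 5 lay above 0 and 5 below (median -0.01), and of the 14 zinc importers of the Slc39 family 5 lay above and 9 below (median -0.02). Slc30a1, the plasma membrane exporter that MTF1 is known to induce along with Mt1 and Mt2A, measured -0.07 (SE 0.04, limma adjusted p = 0.484). That average joins -0.21 under saline (limma adjusted p = 0.410) and 0.07 under leptin (limma adjusted p = 0.626), with an interaction of 0.28 (limma adjusted p = 0.898). Slc39a1 measured -0.10 (SE 0.04, limma adjusted p = 0.286). Slc30a9 (0.06), Slc30a3 (-0.08), which loads zinc into synaptic vesicles, Slc39a10 (-0.06) and Slc39a5 (-0.09) were the others with the smallest p. Of 12 measured genes of copper handling 7 lay above 0 and 5 below (median 0.00) and none passed, with Atp7a at 0.10 (SE 0.06), Atox1 at -0.11 (SE 0.08) and Sod1 at -0.06 (SE 0.06).

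Of 21 genes of oxidative stress defence 10 lay above 0 and 11 below (median -0.00), and 1 passed. Gsta1, a glutathione transferase, rose 1.61-fold (log2 0.69, SE 0.11, limma adjusted p = 0.0381), with the Con arrays between 8.73 and 9.03 and the CR arrays between 9.26 and 9.75. It differed between the restricted replicates in the direction of Mt1 and Mt2A, by 0.35 in CR-s and -0.26 in CR-l. Between the control replicates it differed by 0.09 in Con-s, where both were also higher in A. In Con-l it differed by 0.30, where Mt1 was also higher in A and Mt2A was lower in A. Gstp1 measured 0.18 (SE 0.04, limma adjusted p = 0.116) and Prdx6, a peroxiredoxin, -0.20 (SE 0.05, limma adjusted p = 0.120). At an unadjusted p under 0.05, 4 of the 21 were higher and 1 was lower, against 976 and 1311 of 14508 features.

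Of 16 measured genes induced by glucocorticoids, 4 rose in restricted offspring and 12 did not pass. The 4 were Zbtb16 (1.64-fold, log2 0.72, SE 0.08, limma adjusted p = 0.0218), Fkbp5, which tempers glucocorticoid receptor activity (log2 0.64, SE 0.09, limma adjusted p = 0.0313), Hif3a (0.62, SE 0.09, limma adjusted p = 0.0307) and the kinase Sgk1 (0.49, SE 0.07, limma adjusted p = 0.0322). All 16 lay above 0 (median 0.23), as did 7296 of all 14508 features, of which 0.338% passed higher. This list was written with the earlier diet results known, and its direction is not independent support. Replicate A minus B was 0.05 and 0.06 for Fkbp5 in CR-s and CR-l, -0.11 and -0.32 for Hif3a, and -0.02 and -0.17 for Zbtb16. In Con-s and Con-l it was 0.34 and 0.26 for Fkbp5, 0.11 and -0.24 for Hif3a, and 0.04 and 0.30 for Zbtb16. Each of these genes shared the sign of Mt1 in some groups and not in others, and a common cause was not tested. Leptin differed from saline by -0.40 for Zbtb16 in controls and -0.07 in restricted offspring, and by -0.03 and 0.01 for Fkbp5. For Hif3a the leptin difference was -0.41 in controls and 0.35 in restricted offspring (interaction 0.76, limma adjusted p = 0.898), and its diet difference was 0.24 under saline and 1.01 under leptin. No gene of any list passed in a leptin comparison or the interaction. Of the 16 genes, 2 passed without CR-l replicate A, 1 without either Con-l array and 0 without any of the other arrays, and leaving out any of the 8 left neither Gsta1 nor Gfap (below) passing.

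**Figure D4:**
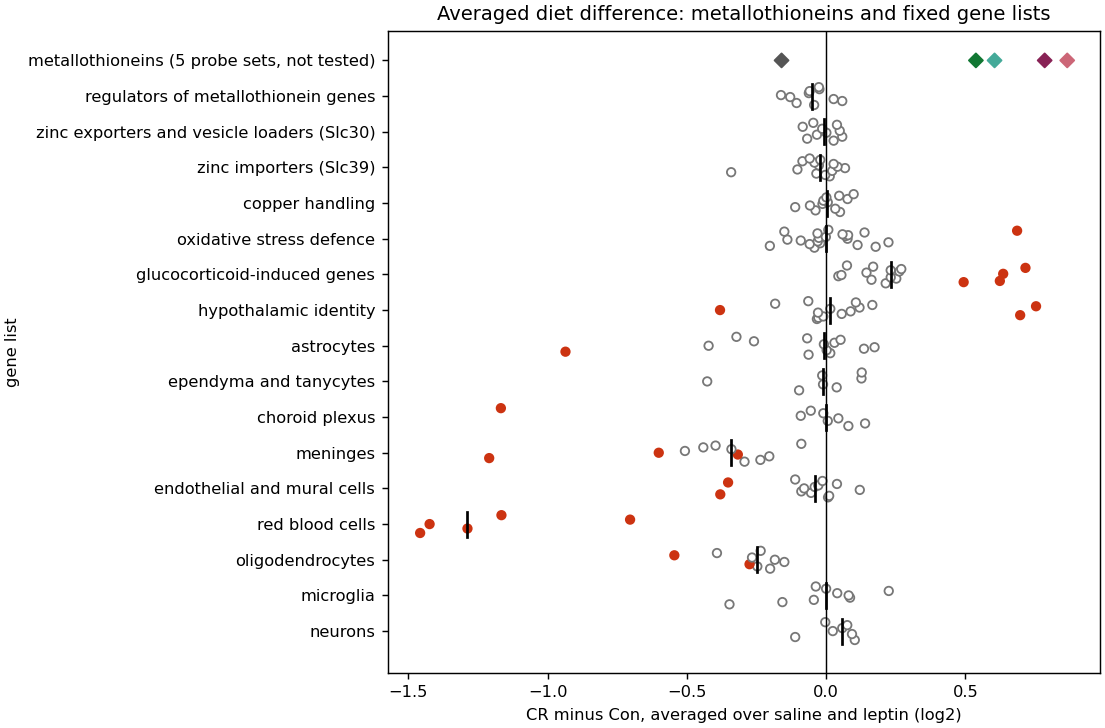
Averaged diet difference (CR minus Con, log2, horizontal axis) of each measured gene in the 16 gene lists (vertical axis), with the median as a bar and filled points for genes that passed in limma; diamonds in the top row are the 5 metallothionein probe sets, which were not tested. The Mt1 and Mt2A diamonds lie at 0.54 to 0.87. The filled points above 0 are 4 glucocorticoid-induced genes (0.49 to 0.72), Gsta1 (0.69), Npy (0.75) and Agrp (0.70), and the other filled points lie below 0. The medians are -0.01 and -0.02 for the zinc exporters and importers and 0.00 for copper handling.

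Markers of cell types were read beside these values. All 15 genes listed for hypothalamic identity were measured, with mean log2 intensities of 6.03 to 12.08. Among them Npy and Agrp rose (0.75 and 0.70; limma adjusted p = 0.0230 and 0.0233) and Oxt fell by 0.38 (limma adjusted p = 0.0493). Of 13 measured astrocyte genes, the cells that make most Mt1 and Mt2A in brain, 6 lay above 0 and 7 below (median -0.01). Gfap, the astrocyte filament gene, fell 1.91-fold (log2 -0.94, SE 0.12, limma adjusted p = 0.0233), with Con arrays at 9.67 to 10.13 and CR arrays at 8.56 to 9.30. Ntsr2 (-0.32) and Aqp4 (-0.42) did not pass, at limma adjusted p of 0.0556 and 0.0697. The summed intensity of the astrocyte list was 28243 to 29500 in the Con arrays and 26892 to 28306 in the CR arrays, which overlap.

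For 3 lists of other cell types the summed intensities separated the diets. The summed intensity of 11 meningeal genes was 2812 to 3956 in Con and 2105 to 2386 in CR, with all 11 below 0 (median -0.34) and 3 passing (Ogn, Slc6a13 and Col1a2). That of 5 red blood cell genes was 3796 to 5764 in Con and 1306 to 2124 in CR, with all 5 passing lower (median -1.29). That of 9 oligodendrocyte genes was 40805 to 45092 in Con and 35583 to 38776 in CR, with all 9 below 0 (median -0.25) and 2 passing (Ermn and Cnp). Over all 14508 features 0.903% passed lower, and 6.67% had every CR array below every Con array. These lists, too, were chosen with earlier results of these data known. Their sums were lower where Mt1 and Mt2A were higher, and their part in the metallothionein values was not tested.

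For 2 more lists the separation of the sums came from 1 gene. The 13 endothelial and mural genes summed to 6541 to 6849 in Con and 6085 to 6279 in CR, with 9 of them below 0 (median -0.04) and 2 passing (Tagln and Rgs5). Without Rgs5, a gene of pericytes that alone read 2042 to 2215 in Con and 1534 to 1796 in CR, the sums overlapped at 4398 to 4634 and 4468 to 4552. The 8 choroid plexus genes summed to 615 to 678 in Con and 582 to 596 in CR, with 4 below 0 (median -0.00) and 1 passing, the potassium channel gene Kcnj13. Without Kcnj13 the sums overlapped at 516 to 556 and 529 to 549, and Ttr, the defining transcript, measured 0.04 (SE 0.14, limma adjusted p = 0.912).

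Of 7 genes of ependyma and tanycytes, 9 of microglia and 7 of neurons none passed, with medians of -0.01, 0.00 and 0.06. Their summed intensities overlapped between the diets, at 2939 to 3511 in Con and 2840 to 3253 in CR for ependyma and tanycytes, 4039 to 4369 and 4038 to 4373 for microglia, and 24222 to 25622 and 25461 to 25871 for neurons.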

How the data were processed

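Per the submitters' processing notes, the authors processed the arrays with RMA in Affymetrix Expression Console; versions, settings and genome build are not given in the sources used here. Each deposited value is a linear intensity of 1 probe set (2.39 to 19807), taken here as log2 without further normalization. Array medians ran from 111.8 to 114.1, with the narrowest interquartile range in CR-s replicate B (2.92 log2 units, others 3.00 to 3.08). Of 29215 probe sets, 15310 have 1 gene symbol, 323 several and 13582 none. The probe set with the highest mean was kept for each gene, with every metallothionein probe set, giving 14508 features. Symbols were updated through RefSeq's gene table.

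A limma 3.58.1 model (R 4.3.3) with 4 group means was fitted over the 8 arrays, with 4 residual and 3.21 prior degrees of freedom, two-sided tests and Benjamini-Hochberg adjustment over all features. Array number limits the precision. Members, comparisons and the 16 gene lists were chosen with earlier results of these data known. The genes named are the members, all regulators, 3 per other list with the smallest unadjusted p for diet, and the 5 most correlated with each probe set. Mt4, Sgk1 and Ttr were chosen after their values were seen. Alternatives were other variance moderation, a filter on dim features, cyclic loess, all probe sets, the replicate letter as a block, and leaving out each array.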

Additional observations from a re-analysis of the deposited data

How the results depend on the processing

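Of 13 alternatives, 5 kept all arrays, and under these none of the 20 tested metallothionein values passed in limma. None of the 15 untested diet values changed sign under any of the 13. Leaving out 1 array could not change those signs, since the diets did not overlap on any of the probe sets. With all arrays kept, no value moved by more than 0.029, but of these alternatives only cyclic loess could move a difference of group means. The changes came from leaving out 1 array. Under leptin the diet difference of Mt2A ranged from 0.808 to 1.292 (10809399) and from 0.795 to 1.391 (10827989). Of the leptin differences, that of Mt2A on 10827989 ranged from -0.003 to 0.296 averaged over diets and from -0.243 to 0.083 in controls. In restricted offspring Mt1 ranged from -0.161 to 0.080 (10796411; 0.074 without CR-l replicate A) and from -0.136 to 0.115 (10809392; 0.108 without CR-s replicate A), and Mt3 from -0.008 to 0.051.

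The number of features passing in limma for averaged diet, 180, became 742 with trend and robust moderation, 611 among the upper 60 percent by mean, 0 with all probe sets and 0 (without Con-s replicate B) to 27 (without CR-l replicate A) without 1 array. For diet under saline, 0 became 66 and 16 with the first 2 settings. For diet under leptin, 3 (Rbm3, Enpp2 and Serpinh1, named after their values were seen) became 470, 251, 24 with cyclic loess, 0 with all probe sets and 0 to 3 without 1 array. For the leptin comparisons and the interaction, 0 became 0 to 1 (Adpgk or Cga) without 1 array. The cause of these changes was not tested. As a replicate block, the letters A and B gave 87 features for averaged diet and 0 for diet under leptin, and changed no metallothionein call. The letters are not treated as pairs because same-lettered arrays deviated together at r of only -0.061 to 0.108 across features. The closest array of another group had the same letter for 6 of 8 arrays. The 2 arrays of a group always give the same answer here, so they are not separate observations.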
